A study of Mus musculus with 9 samples.

Results

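AP-1 is a family of dimeric transcription factors built from proteins of the Fos and Jun groups, and the genes that encode its subunits were examined here in derivatives of a mouse squamous carcinoma line. The members were Fos, Fosb, Fosl1 and Fosl2, which encode the Fos group, Jun, Junb and Jund, which encode the Jun group, and Atf3, whose product pairs with Jun proteins. They were taken by symbol from the platform's annotation, with all probe sets assigned to a single gene. This gave 12 of the 45100 probe sets on the array and 8 of the 18194 genes tested. Fosl1, Fosl2, Jun and Jund had 2 probe sets each, and the other 4 genes had 1 each.

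The subunits share a basic region that contacts DNA and a leucine zipper through which they pair. Fos proteins need a Jun partner to bind DNA stably, whereas Jun proteins can also pair with each other. Fos, Fosb, Jun, Junb and Atf3 are immediate early or stress-induced genes whose transcripts rise and decay quickly, while Fosl1 and Fosl2 respond later and their products last longer. In carcinoma cells the family is known for its part in growth, invasion and the response to stress and mitogens.

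All 9 samples were SCCVII cells, a line that the labels trace to an oral squamous cell carcinoma of spontaneous origin in CH3 mice. PA, the parental cells, were kept in standard culture. NIR lines came from tumours that PA cells formed in stroma without irradiation, and IR lines from tumours that PA cells formed in stroma irradiated beforehand, so in neither case were the injected cells described as irradiated. The labels call the IR tumours hypoxic, invasive and metastatic and say that the lines keep their invasive and metastatic capacity in normoxic culture, and they call the NIR tumours and lines poorly invasive and metastatic. RNA of 3 samples per group was hybridized to Affymetrix arrays. The design calls the 9 samples independent without saying if each array of a group had its own tumour, line or culture dish. The p-values below therefore measure only the spread between these samples, which may be technical.

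Expression is given as deposited RMA values in log2 units, where a difference of 1 is a doubling. The array medians lay between 4.45 and 4.52, and having only 3 arrays a group limits how small a change can be resolved. Of 12 epithelial markers, 7 lay above the median of all values, 4.49, on every array and 5 below it. The simple keratin genes Krt8 (12.6 to 12.8) and Krt18 (11.2 to 12.0) were bright on all 9 arrays, and Epcam (5.81 to 6.22) and Krt5 (4.80 to 5.11) lay above the median. Krt18 was called as higher in IR than in NIR (0.57, limma adjusted p = 0.0180, lost without any IR array) and than in PA (0.55, adjusted p = 0.0146, lost without IR1, IR2 or any PA array). The other 11 epithelial markers were not called. The cadherin gene Cdh1 (3.24 to 3.37), the squamous regulator Trp63 (4.15 to 4.38) and Krt14 (3.66 to 4.03) lay below the median on every array, as did Dsp and Krt7. The mean of 14 macrophage markers was 4.66 to 5.05 in IR, with IR3 the highest array, against 4.59 to 4.69 in NIR and 4.44 to 4.58 in PA. On every array 4 of the 14 lay above the median, among them Cd14 (7.23 to 7.80), Csf1r (5.50 to 5.91) and Fcer1g (5.45 to 5.91). Below it on every array lay 6 of the 14, among them Ptprc, Adgre1 and Itgam. The lysozyme gene Lyz2 stood apart on IR3, at 8.25 against 4.63 to 6.32 on the other arrays. The mean of 11 fibroblast markers was 6.96 to 7.06 in IR, 6.83 to 7.16 in NIR and 6.64 to 6.81 in PA. On every array 8 of the 11 lay above the median and 2, Thy1 and Fap, below it. Col1a2 (11.1 to 11.7), Col3a1 (11.2 to 11.7) and Pdgfra (9.00 to 9.43) were bright on all 9 arrays. In bulk RNA a change in the number of cells that express a gene and a change in RNA per cell cannot be told apart.

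The promoters of Fos and Atf3, the members that rose in IR against PA, are shown with that of Jun, which encodes the partner of both proteins and did not pass in that comparison. RefSeq promoter windows on GRCm38.p6, from 250 bases before to 50 bases after the start, matched 7 of the 8 genes. Fosl1 had no window and was not searched. Capitals mark TGACGT, the core of the cyclic AMP response element that ATF and CREB proteins bind, read on either strand, or TGACATCA, a site of the kind that Jun and ATF dimers bind.
Fos, chr12:85473640-85473939, + strand: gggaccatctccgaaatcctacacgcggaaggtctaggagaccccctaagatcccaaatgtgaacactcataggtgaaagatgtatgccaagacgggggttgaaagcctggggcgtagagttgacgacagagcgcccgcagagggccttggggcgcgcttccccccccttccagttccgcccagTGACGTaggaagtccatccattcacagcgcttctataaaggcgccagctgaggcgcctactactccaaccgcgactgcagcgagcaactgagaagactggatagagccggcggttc
Atf3, chr1:191183284-191183583, - strand: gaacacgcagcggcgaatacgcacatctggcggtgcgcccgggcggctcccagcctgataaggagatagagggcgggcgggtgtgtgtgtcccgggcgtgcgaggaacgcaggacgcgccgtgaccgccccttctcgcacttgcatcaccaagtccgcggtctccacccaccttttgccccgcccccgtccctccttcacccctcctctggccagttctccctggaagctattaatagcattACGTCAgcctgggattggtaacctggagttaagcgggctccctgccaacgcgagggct
Jun, chr4:95052173-95052472, - strand: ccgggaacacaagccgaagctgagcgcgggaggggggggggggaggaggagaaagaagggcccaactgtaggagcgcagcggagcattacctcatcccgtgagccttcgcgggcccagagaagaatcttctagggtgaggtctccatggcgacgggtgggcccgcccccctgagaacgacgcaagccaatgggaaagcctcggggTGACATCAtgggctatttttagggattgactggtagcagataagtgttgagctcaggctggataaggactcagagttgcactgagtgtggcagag

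TGACGT began 66 bases before the start in Fos and 8 bases before it in Atf3, where it lies on the opposite strand as ACGTCA. No other member window held it, and 7.51% of all 32841 promoter windows did. The motifs were chosen after the sequences were seen, and a link of TGACGT to the values in IR was not tested. TGACATCA, found 45 bases before the start of Jun alone among the 7 members with a window, was in 3.62% of all windows. The palindromic element TGACGTCA, which contains the core, was in 1.79% of all windows and the AP-1 site TGACTCA in 5.2%, and no member window held either on any strand. The CArG box, bound by serum response factor, was in 1.63% of windows and in none of the members' windows. The absence of these letters speaks only of the 300 bases searched.

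In IR against NIR, the Fos transcript was higher in IR and the Fosl1 transcript lower, and the other 6 members did not pass. A gene was called where its limma p-value, adjusted by Benjamini-Hochberg over all 18194 genes, was below 0.05. With this rule 1.65% of all genes were called in IR against NIR, 0.786% as higher and 0.863% as lower. Limma gave 4 members, and 15.9% of all genes, an unadjusted p below 0.05. The median difference of the 8 members was 0.17 against 0.0014 over all genes. The arrays of IR and NIR did not overlap for 3 members, Fos and Atf3 as higher and Fosl1 as lower, where 18.1% of all genes were so separated, 8.69% as higher and 9.4% as lower.

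In IR against PA, Fos and Atf3 were higher in IR, 0 members were lower and 6 did not pass. Over all genes 1.06% were called, 0.297% as higher and 0.758% as lower, and limma gave 2 members an unadjusted p below 0.05, again Fos and Atf3, as it did 8.59% of all genes. The median member difference was 0.020. Arrays were separate for Fos, Junb and Atf3, all higher in IR, where 14.7% of all genes were separate, 7.26% as higher and 7.43% as lower. In NIR against PA, Fosl1 was higher in NIR, 0 members were lower and 7 did not pass, with 1.3% of all genes called, 0.379% as higher and 0.918% as lower, 4 members and 12.1% of all genes at an unadjusted limma p below 0.05, and a median member difference of -0.075. Arrays were separate for 4 members, Fosl1 and Atf3 as higher and Fos and Jun as lower, against 15.5% of all genes, 7.82% as higher and 7.73% as lower. Each group enters 2 of these 3 comparisons, so they are not independent.

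**Figure D1:**
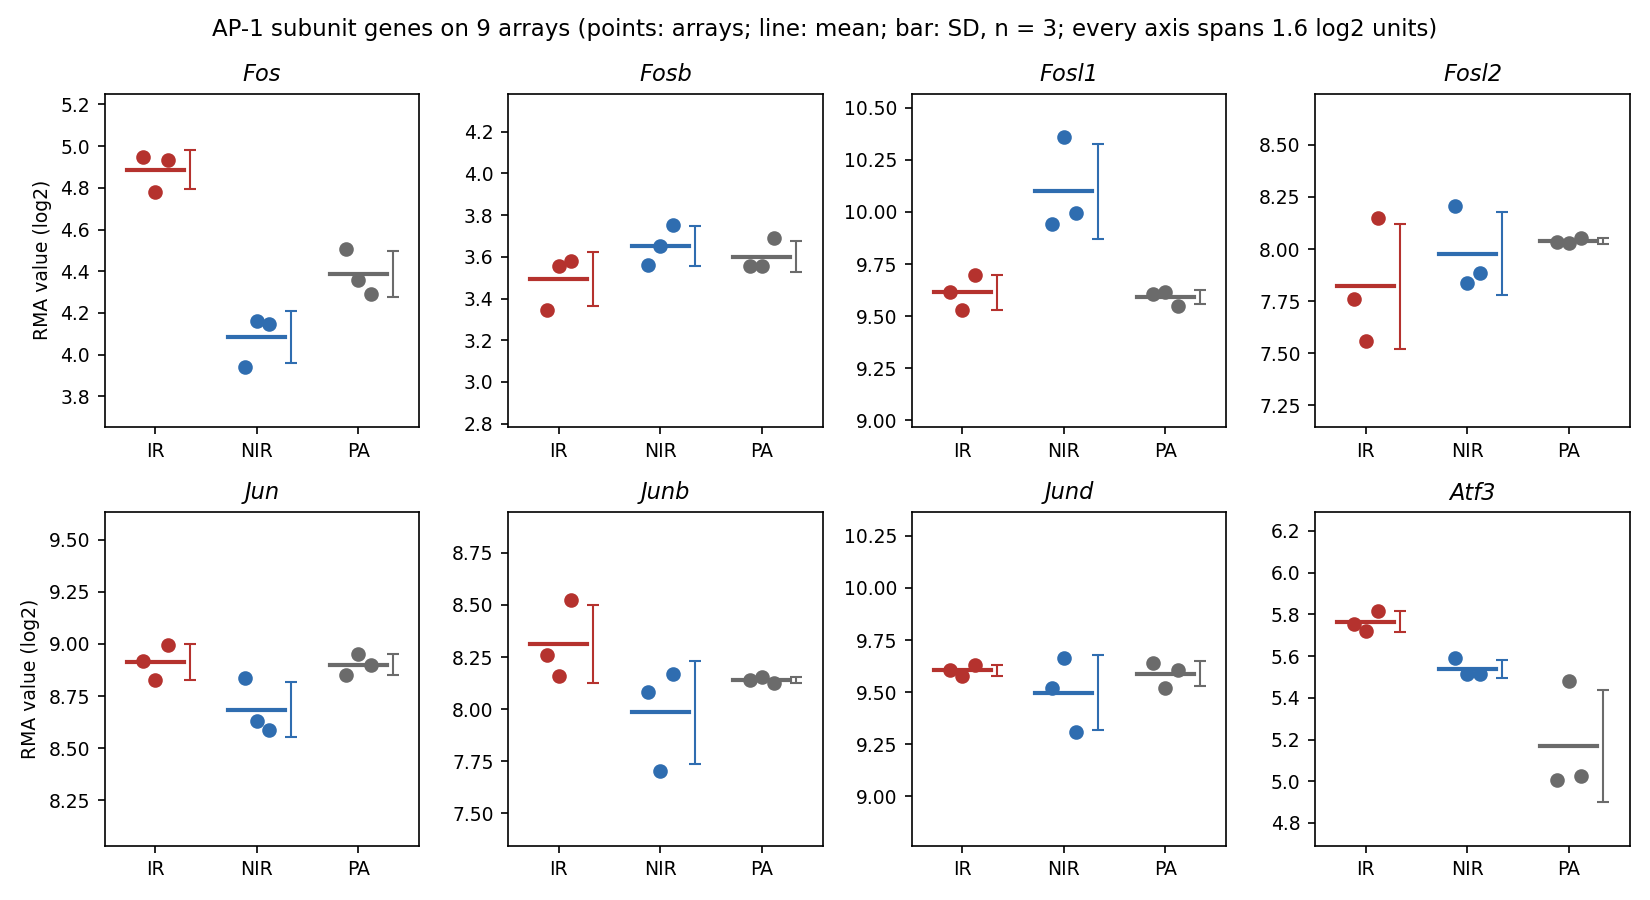
RMA values (log2, vertical axis) of the 8 AP-1 subunit genes in the 3 IR, 3 NIR and 3 PA arrays, 1 panel per gene, with a line for the group mean and a bar for the SD (n = 3). Fos was highest in the IR arrays (4.78 to 4.95) and lowest in the NIR arrays (3.94 to 4.16), while Fosl1 was highest in NIR (9.94 to 10.36).

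Fos encodes the founding member of the Fos group, a short-lived protein that serum and growth factors induce. Its probe set (Entrez Gene 14281) read 4.95, 4.78 and 4.93 in IR1 to IR3, 3.94, 4.16 and 4.15 in NIR1 to NIR3, and 4.51, 4.36 and 4.29 in PA1 to PA3. The groups stood in the order IR, PA, NIR with no overlap between any pair of them. The IR mean exceeded the NIR mean 1.74-fold (difference 0.80, SE 0.088, limma adjusted p = 0.00244), and Fos ranked 10 by p among all genes tested. It exceeded the PA mean 1.42-fold (0.50, SE 0.088, limma adjusted p = 0.0182). NIR was lower than PA by a difference that did not pass (-0.30, 95% interval -0.49 to -0.11, limma adjusted p = 0.161).

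The Fos signal was dim. The mean of its probe set over the 9 arrays stood at percentile 49.3 of all probe sets, with every IR array above the median of all values (4.49), every NIR array below it and PA on either side of it. The folds given for Fos therefore rest on 1 probe set with values close to the median of all values. No detection calls were available, so whether Fos was detected in each group is not known. The difference between IR and NIR passed without each of the 9 arrays in turn (0.73 to 0.86, limma adjusted p at most 0.0189). It was 0.78 without IR3, the array with the highest mean of the macrophage markers (adjusted p = 0.0102). Krt18 moved in the same direction as Fos in both comparisons of IR, at the values given above, and its part in the Fos result was not tested. The call of Fos against PA was lost without IR1, IR3, PA2 or PA3, with differences of 0.45 to 0.56 over all 9 omissions and a limma adjusted p of up to 0.104.

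Fosb, the close relative of Fos, did not pass in any comparison. Its probe set read 3.35 to 3.58 in IR, 3.56 to 3.75 in NIR and 3.56 to 3.69 in PA, below the median of all values on every array. Its mean stood at percentile 23.5 of all probe sets, and the 9 arrays held only 7 distinct values. The difference was -0.16 between IR and NIR (95% interval -0.35 to 0.027, limma adjusted p = 0.405), -0.11 between IR and PA (adjusted p = 0.820) and 0.053 between NIR and PA (adjusted p = 0.866). At this signal a change of Fosb may not be detectable.

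Fosl1 encodes FRA1, a Fos-group protein without the transactivation domain of Fos that is known for its abundance in invasive carcinoma cells. Its brighter probe set (Entrez Gene 14283) read 9.62, 9.53 and 9.70 in IR1 to IR3, 9.94, 10.36 and 10.00 in NIR1 to NIR3, and 9.61, 9.62 and 9.55 in PA1 to PA3. The NIR arrays lay above all 6 others, and the ranges of IR and PA overlapped. Fosl1 was 1.42-fold higher in NIR than in PA (log2 difference 0.51, SE 0.10, limma adjusted p = 0.0365). It was lower in IR than in NIR (-0.48, SE 0.10, limma adjusted p = 0.0428). IR and PA differed by 0.023, with a 95% interval of -0.20 to 0.25 (limma adjusted p = 0.981). In NIR against PA, 2 of the 11 fibroblast markers were also called as higher, against 0.379% of all genes. These were Lum (1.29, limma adjusted p = 0.0241, lost without NIR1, NIR2 or any PA array) and Dcn (0.81, adjusted p = 0.0391, lost without any array but IR3 and NIR3). Neither was called in IR against NIR, and their part in the Fosl1 result was not tested.

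The second probe set of Fosl1 was also highest in NIR, without overlap, with 8.02 to 8.33 in IR, 8.39 to 8.72 in NIR and 8.10 to 8.29 in PA. Between IR and PA it gave -0.035, opposite in sign to the brighter probe set. It differed by -0.46 between IR and NIR and by 0.43 between NIR and PA. Adjusted over every single-gene probe set, where 0.881% were called for IR against NIR and 0.836% for NIR against PA, neither passed (limma adjusted p = 0.0750 and 0.126). With the mean of both probe sets Fosl1 passed in both comparisons (-0.47 and 0.47, limma adjusted p = 0.0375 and 0.0337). The calls of the brighter probe set depended on single arrays. Between IR and NIR, Fosl1 passed only when NIR1 was the array left out (limma adjusted p otherwise up to 0.119), and the difference fell in size to -0.35 without NIR2, the highest array. The call between NIR and PA was lost without IR1, IR2, PA1, PA2 or PA3 (up to 0.151). With only the compared groups in the fit, neither call held (limma adjusted p = 0.160 for IR against NIR and 0.0760 for NIR against PA).

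Fosl2, which encodes FRA2, did not pass in any comparison, and its probe sets differed in sign in both comparisons with PA. The brighter one read 7.76, 7.56 and 8.15 in IR, 8.21, 7.84 and 7.89 in NIR and 8.03, 8.03 and 8.05 in PA, so the derived lines spread widely around a tight PA group. Its differences were -0.16 for IR against NIR, -0.22 for IR against PA and -0.060 for NIR against PA, with limma adjusted p of 0.650, 0.746 and 0.913. The dimmer probe set read 5.40 to 5.59 in IR, 5.52 to 5.86 in NIR and 5.29 to 5.46 in PA. In IR against NIR it gave -0.17, the same sign as the brighter one. It gave 0.28 for NIR against PA with no overlap of arrays and 0.11 for IR against PA, both opposite in sign to the brighter probe set (limma adjusted p = 0.276 and 0.860 over all probe sets).

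**Figure D2:**
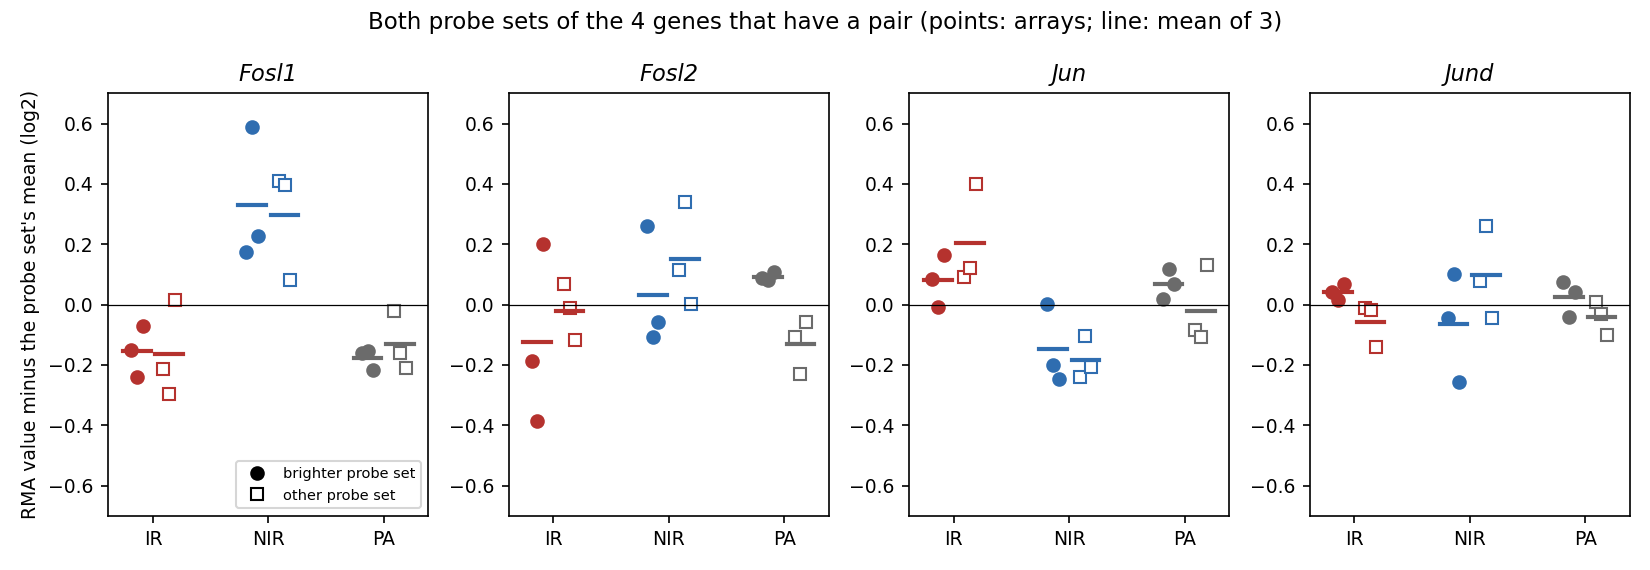
RMA value of each array minus the mean of its probe set over the 9 arrays (log2, vertical axis) for the brighter (filled circles) and the other probe set (open squares) of Fosl1, Fosl2, Jun and Jund, with lines for group means. Both probe sets of Fosl1 were highest in NIR, both of Jun were lowest in NIR, and those of Fosl2 and Jund differed in their order of groups.

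Jun encodes c-Jun, the main partner of Fos proteins and the target of the JNK kinases. Its brighter probe set (Entrez Gene 16476) read 8.92, 8.83 and 9.00 in IR, 8.83, 8.63 and 8.59 in NIR and 8.85, 8.95 and 8.90 in PA. NIR was the lowest group by its mean and was separate from PA, while NIR1 reached into the range of IR. The differences were 0.23 for IR against NIR (95% interval 0.049 to 0.41, limma adjusted p = 0.193), 0.012 for IR against PA (-0.17 to 0.19, adjusted p = 0.986) and -0.22 for NIR against PA (-0.40 to -0.036, adjusted p = 0.311).

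The second Jun probe set read 8.45, 8.49 and 8.76 in IR, 8.12, 8.26 and 8.16 in NIR and 8.28, 8.26 and 8.50 in PA. It showed IR above NIR with no overlap and a difference of 0.39 that did not pass (limma adjusted p = 0.0905 over all probe sets). With the mean of both probe sets, IR minus NIR was 0.31 (limma adjusted p = 0.0643). IR3 was the highest array on both Jun probe sets and also had the highest mean of the macrophage markers, though not of each marker. Without IR3 the brighter probe set gave 0.19 for IR against NIR (limma adjusted p = 0.430), and the part of those markers in the value was not tested.

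Junb encodes a Jun protein that antagonizes c-Jun at some promoters and is itself an immediate early gene. It read 8.26, 8.16 and 8.52 in IR, 8.08, 7.70 and 8.17 in NIR and 8.14, 8.15 and 8.13 in PA. IR lay just above PA without overlap, by a difference of 0.17 that did not pass (limma adjusted p = 0.780), and IR3 and NIR2 set the extremes. IR minus NIR was 0.33 (95% interval 0.061 to 0.59, limma adjusted p = 0.206), and NIR minus PA was -0.16 (adjusted p = 0.674). Over the omission of each array, IR minus NIR ranged from 0.19 to 0.42 and never passed.

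Jund encodes the Jun protein that is usually present in resting cells and is less inducible. Its brighter probe set read 9.58 to 9.63 in IR, 9.31 to 9.67 in NIR and 9.52 to 9.64 in PA, and the groups overlapped in every comparison. IR minus PA was 0.017, with a 95% interval of -0.18 to 0.21, and IR minus NIR was 0.11 (-0.087 to 0.30, limma adjusted p = 0.626). NIR minus PA was -0.091 (limma adjusted p = 0.747). The other Jund probe set, near the median of all values at 4.52 to 4.92, gave differences of opposite sign (-0.16, -0.016 and 0.14) and did not pass either. No direction can therefore be given for Jund.

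Atf3 encodes a stress-induced factor of the ATF group that works as a repressor on its own and as an activator or repressor with Jun partners. Its probe set (Entrez Gene 11910) read 5.76, 5.72 and 5.82 in IR1 to IR3, 5.59, 5.51 and 5.51 in NIR1 to NIR3, and 5.01, 5.48 and 5.02 in PA1 to PA3. The order was IR, NIR, PA with no overlap, although PA2 came close to the lowest NIR arrays. Atf3 was 1.51-fold higher in IR than in PA (log2 difference 0.59, SE 0.11, limma adjusted p = 0.0274). The neighbouring groups did not differ by a margin that passed, with 0.23 for IR against NIR (95% interval -0.020 to 0.47, limma adjusted p = 0.361) and 0.37 for NIR against PA (0.12 to 0.61, adjusted p = 0.183).

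The size of the Atf3 differences from PA depended on PA2, and both were larger without it. Without PA2, IR minus PA was 0.75 (limma adjusted p = 0.00185) and NIR minus PA was 0.52 and passed (adjusted p = 0.00896). Leaving out IR1, IR2, IR3, PA1 or PA3 ended the call of Atf3 between IR and PA (limma adjusted p up to 0.160), and with only IR and PA in the fit it was lost as well (0.0847). The means of the macrophage and fibroblast marker lists were lowest in PA, as Atf3 was, at the levels given above. In IR against PA, 13 of 14 macrophage markers had a positive difference (median 0.18), and 0 of them were called. Of the fibroblast markers 8 of 11 did, with a median of 0.030 against 0.0043 over all genes. A positive difference was also found for 8 of 9 lymphocyte markers measured (median 0.095, 0 called) and 8 of 12 epithelial markers (median 0.024). Of 7 endothelial markers 2 had one. Among fibroblast markers limma called only the proteoglycan gene Dcn as higher in IR than in PA (1.24, adjusted p = 0.00265, and 0.60 with the mean of its probe sets), against 0.297% of all genes. The part of these markers in the Atf3 result was not tested.

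**Figure D3:**
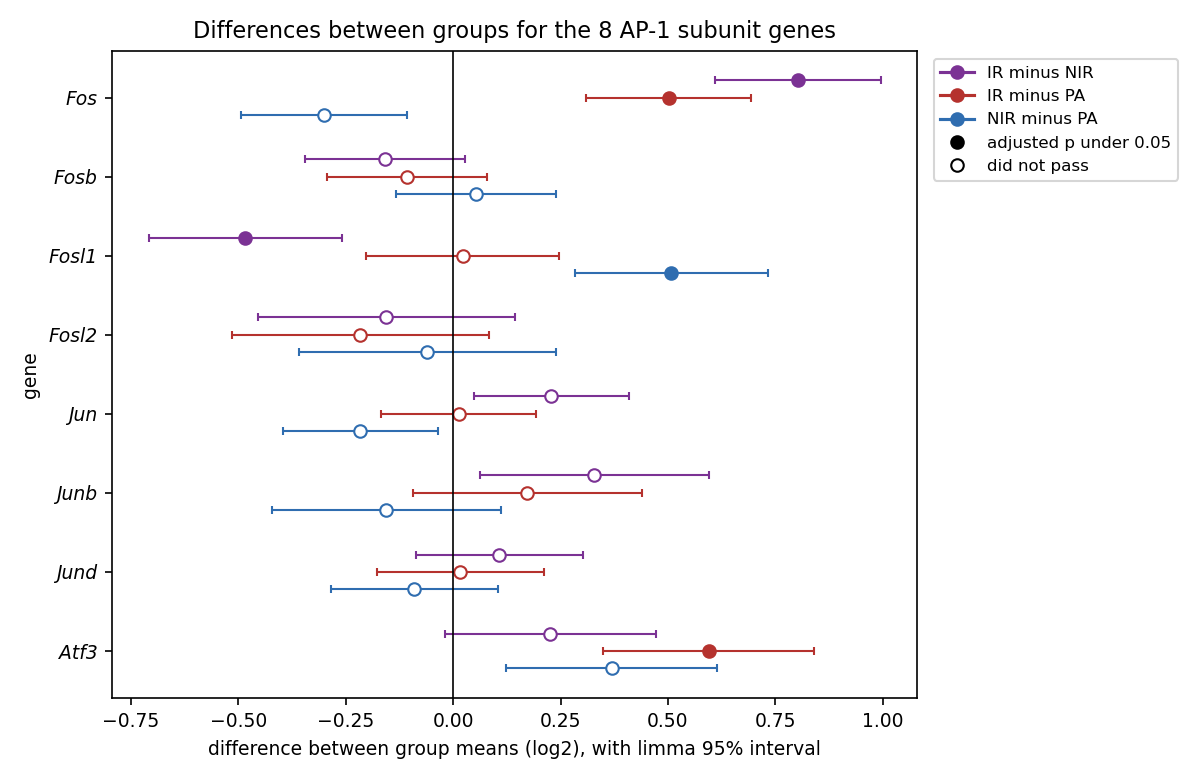
Differences between group means (log2, horizontal axis) with limma 95% intervals for the 8 AP-1 subunit genes in the 3 comparisons, filled where the adjusted p was below 0.05. Fos stood at 0.80 and 0.50 in the comparisons of IR, Fosl1 at -0.48 and 0.51 in those of NIR, and Atf3 at 0.59 in IR against PA.

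The genes whose values followed Fos, Fosl1 and Atf3 most closely over the 9 arrays were taken from 11850 genes with a mean signal at or above the median probe set. The correlations describe these arrays, are the highest of many, and largely share the differences between 3 groups. Closest to Fos were Stx7, a syntaxin of endosomal membrane fusion (Pearson r = 0.973), Egr1, the zinc finger factor induced by the same signals as Fos (r = 0.969), and Skil, a repressor of SMAD signalling (r = 0.954). The group means of all 3 had the order IR, PA, NIR. Stx7 read 9.18 to 9.30 in IR, 8.72 to 8.84 in NIR and 8.95 to 9.07 in PA, without overlap. Closest to Fosl1 were Thap12 (r = 0.975), Tada2b, an adaptor of histone acetyltransferase complexes (r = 0.972), and Nrd1, a metalloprotease (r = 0.965). All 3 were highest in NIR2, as Fosl1 was. Closest to Atf3 were Krt88 (r = 0.966), Rapgef2, an activator of Rap proteins (r = 0.918), and Katnal1, a subunit of a microtubule-severing enzyme (r = 0.917). Each of them was higher in PA2 than in PA1 and PA3.

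**Figure D4:**
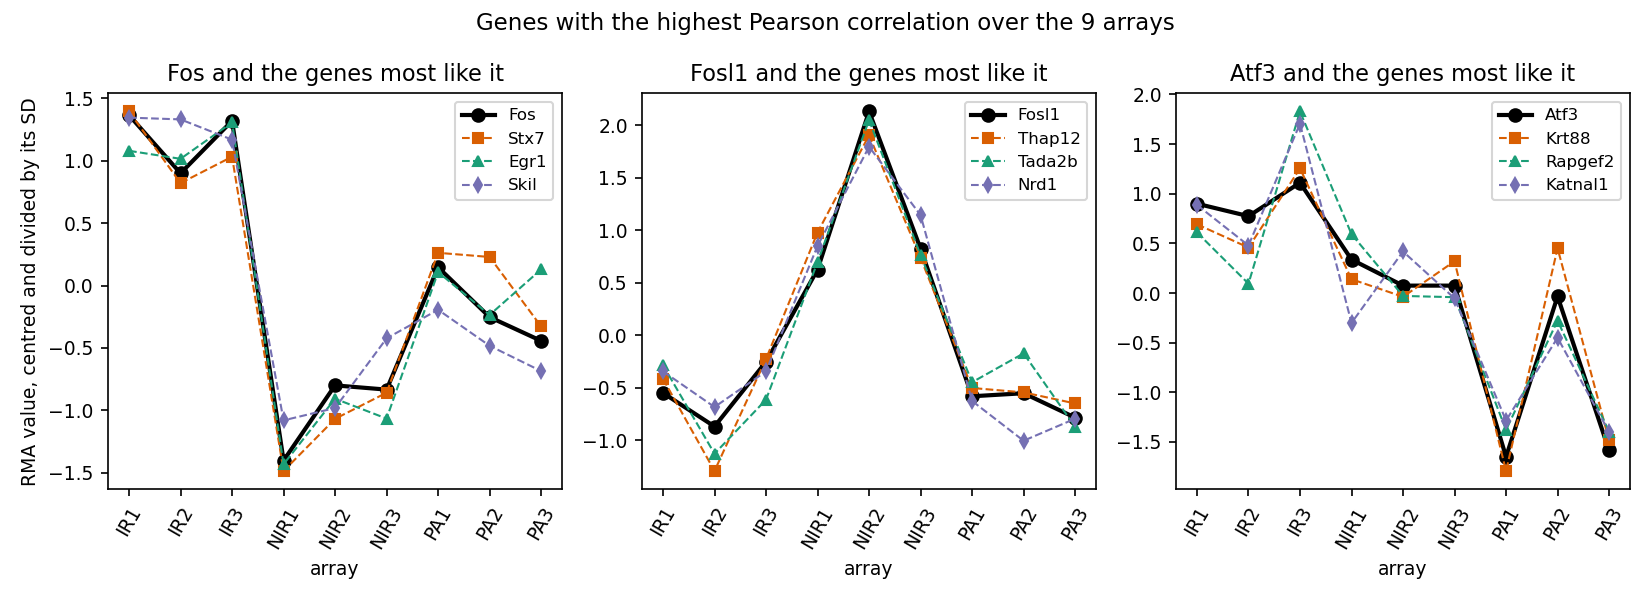
RMA values of Fos, Fosl1 and Atf3 (black) and of the 3 genes with the highest Pearson correlation to each, centred and divided by their SD over the 9 arrays (vertical axis, no unit), by array. Fos, Stx7, Egr1 and Skil fell from IR to NIR, with PA between, and Fosl1 and its neighbours peaked in NIR2.

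Other immediate early genes were examined as a list of 25 that left out the AP-1 subunits. Growth factors and stress switch such genes on, some of them through the same kinases and serum response factor. Of the 25, 7 rose in IR against NIR, 0 fell and 18 did not pass, where 0.786% of all genes rose and 0.863% fell. The median difference was 0.22 against 0.0014 over all genes, and 12 of the 25 had an unadjusted limma p below 0.05, against 15.9% of all genes. The 4 with the largest change were Egr1 (3.94), Ccn1, which encodes a matricellular protein (1.71), Ier2 (0.80) and Klf10, a TGF-beta induced repressor (0.80), with limma adjusted p from 2.56e-06 to 0.0130. Egr1 read 8.62, 8.51 and 9.02 in IR, 4.26, 5.18 and 4.90 in NIR and 6.94, 6.34 and 6.97 in PA, so the NIR arrays lay around the median of all values, 4.49. Egr1, Ccn1, Ier2 and Klf10 passed without each of the 9 arrays in turn. Of the other 3, Klf6 (0.47) was lost without any single array, Errfi1 (0.38) without any IR array, NIR1 or NIR3, and Rhob (0.51) without IR1, IR2 or NIR2, so 4 of the 25 rose without IR1 or without IR2. Ier2 and Klf10 did not pass with only IR and NIR in the fit (limma adjusted p = 0.0625 and 0.0736), and Ccn1 did not pass when probe sets that can bind several transcripts were left out (0.36, adjusted p = 0.134).

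Against PA, 3 of the 25 rose in IR and 0 fell, where 0.297% of all genes rose and 0.758% fell. An unadjusted limma p below 0.05 was found for 8 (8.59% of all genes), and the median was 0.12. The 3 that rose were Egr1 (1.97), Ccn1 (0.69) and Errfi1, an inhibitor of the EGF receptor (0.37, limma adjusted p = 0.0214, lost without any IR or PA array, up to 0.134). In NIR against PA, 3 fell and 0 rose, where 0.918% of all genes fell and 0.379% rose. An unadjusted limma p below 0.05 was found for 9 (12.1% of all genes), and the median was -0.12. The 3 that fell were Egr1 (-1.97), Ccn1 (-1.03) and Rhob, a small GTPase (-0.43, limma adjusted p = 0.0387, lost without IR1, IR2, NIR2, NIR3 or any PA array, up to 0.172). Fos, Egr1 and Ccn1 thus shared the order IR, PA, NIR, although the step from PA to NIR did not pass for Fos. Without probe sets that can bind several transcripts, Ccn1 passed in neither comparison with PA (limma adjusted p = 0.596 and 0.757).

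Among the factors that limit AP-1, namely phosphatases of the MAP kinases, mRNA decay factors and ubiquitin ligases, together with Cops5, which encodes a Jun-binding protein, 13 of 14 genes were measured. In IR against NIR 1 rose, Dusp6, which inactivates ERK and is induced by it (0.77, SE 0.098, limma adjusted p = 0.00498), and 0 fell. Of all genes 0.786% rose and 0.863% fell. Dusp6 read 10.00, 10.09 and 10.25 in IR, 9.14, 9.41 and 9.49 in NIR and 9.78, 9.79 and 9.74 in PA, with no overlap between the groups. It passed without each array in turn but not with only IR and NIR in the fit (limma adjusted p = 0.0613). In each comparison with PA 0 of the 13 were called, where 1.06% of all genes were called in IR and 1.3% in NIR. An unadjusted limma p below 0.05 was found for 3 in IR and 3 in NIR, where 8.59% and 12.1% of all genes reached it. In NIR against PA, Dusp1 passed as lower without IR3 or NIR1, Dusp6 without IR3 or NIR3, and Zfp36, an mRNA decay factor, without PA2.

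Of the kinases and factors upstream of AP-1, 16 of 20 were measured. None was called between IR and NIR or between IR and PA, where 1.65% and 1.06% of all genes were called. Limma gave 7 and 2 of the 16 an unadjusted p below 0.05, against 15.9% and 8.59% of all genes. In NIR against PA 1 fell and 0 rose, where 0.918% of all genes fell and 0.379% rose. The gene was Map2k1, which encodes the ERK kinase MEK1 (-0.30, limma adjusted p = 0.0413), and this call was lost without any array but IR3 (up to 0.165). The list medians were 0.012, 0.047 and -0.0095 for IR against NIR, IR against PA and NIR against PA.

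Of 21 other bZIP genes related to the AP-1 subunits, 19 were measured. Mafg, a small Maf protein that pairs with NRF2 and Fos, fell in IR against NIR (-0.41, limma adjusted p = 0.0350), and this call was lost without any array but NIR3 (up to 0.0934) and with the mean of its probe sets (-0.16, adjusted p = 0.240). Cebpd, a C/EBP factor of the acute phase response, fell in IR against PA (-0.83, limma adjusted p = 0.0330), which was lost without IR1, IR2, NIR2 or any PA array (up to 0.195), and with the mean of its probe sets the difference was -0.45 (adjusted p = 0.0729). Ddit3, which encodes the stress factor CHOP and pairs with C/EBP proteins, rose in NIR against PA (0.59, limma adjusted p = 0.0262), which was lost without any NIR or PA array (up to 0.122). The other 18 members did not pass in each of these comparisons. Over all genes 0.863% fell in IR against NIR, 0.758% fell in IR against PA and 0.379% rose in NIR against PA. Limma gave 7, 4 and 5 of the 19 an unadjusted p below 0.05 in these comparisons, where 15.9%, 8.59% and 12.1% of all genes reached it. Without IR3 limma called Cebpd as lower in IR against NIR, and without PA3 it called Batf2 as lower in NIR against PA.

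Of 21 genes known as AP-1 targets, among them matrix metalloproteinases, the plasminogen activator Plau and its receptor gene Plaur, 17 were measured and 0 were called in any comparison. Over all genes 1.65% were called in IR against NIR, 1.06% in IR against PA and 1.3% in NIR against PA. A list of 17 genes is too short for 0 calls to set it apart. Limma gave an unadjusted p below 0.05 to 6 of the 17 in IR against NIR, 2 in IR against PA and 4 in NIR against PA, where 15.9%, 8.59% and 12.1% of all genes reached it. Without NIR1 limma called Hbegf, an EGF receptor ligand, as higher in IR against PA, and without NIR2 it called Mmp9, a gelatinase, as higher in NIR against PA. Their differences ran from -0.33 to 0.28 in IR against NIR, with a median of -0.053. Against PA they ran from -0.18 to 0.68 in IR (median -0.014) and from -0.19 to 0.61 in NIR (median 0.068).

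**Figure D5:**
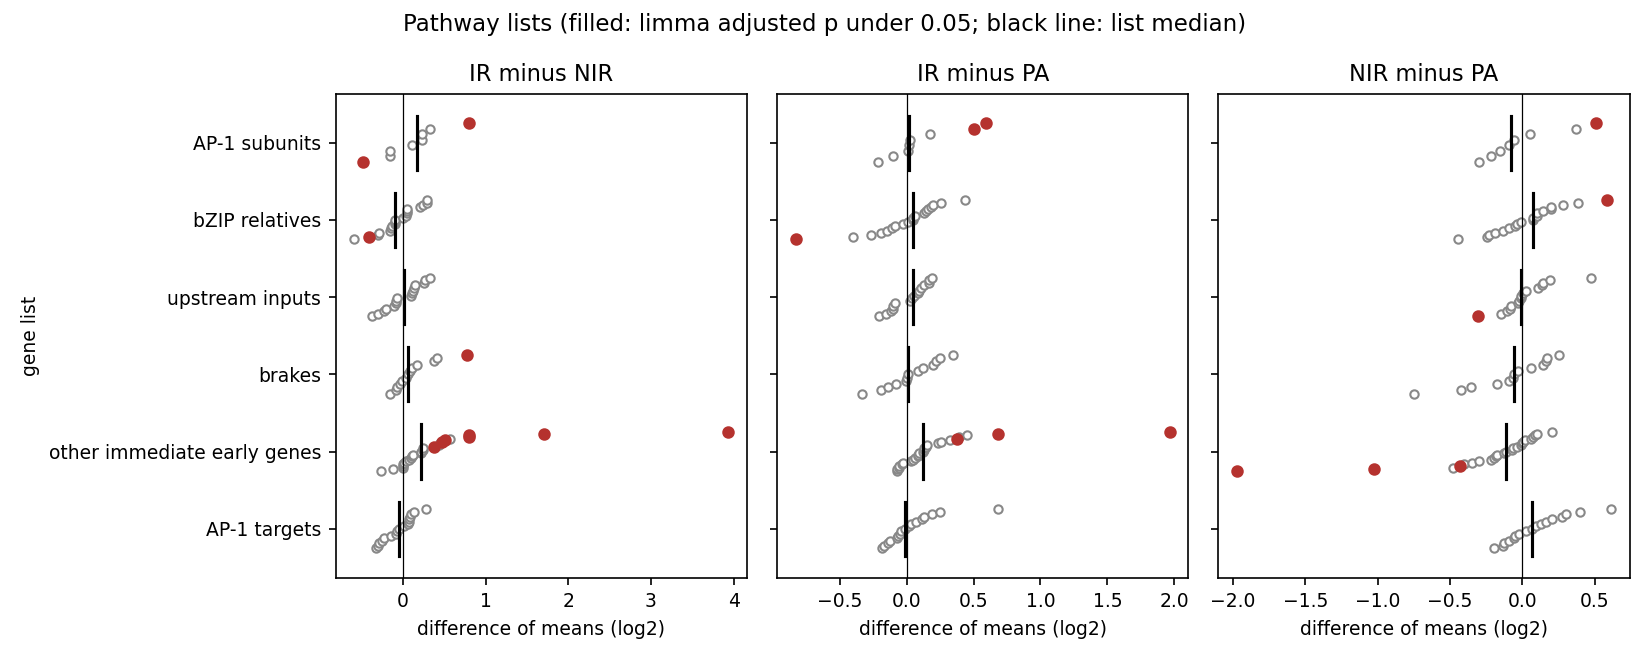
Differences of group means (log2, horizontal axis) for the AP-1 subunit genes and 5 pathway lists in the 3 comparisons, 1 point per gene, filled where limma's adjusted p was below 0.05, with a black line at each list's median. The other immediate early genes held 7 called genes in IR against NIR, all higher, and the AP-1 targets held 0 in every comparison. Of all genes 1.65% were called in IR against NIR, 1.06% in IR against PA and 1.3% in NIR against PA.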

How the data were processed

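The authors deposited log2 values made with RMA, per the submitters' processing notes, and its version and settings are not given in the sources used here. Of 45100 probe sets, 34944 carried a single gene, 932 several and 9160 none, and 64 were controls. Names came from the platform annotation, updated by Entrez identifier against RefSeq, which matched 34740. Each of 18194 genes was represented by its brightest probe set (mean of 9 arrays) and tested with limma 3.58.1 in R 4.3.3 (lmFit, eBayes, a mean per group, all 9 arrays, 2-sided, 6 residual and 5.48 prior degrees of freedom, Benjamini-Hochberg threshold 0.05). A fit over every single-gene probe set served the other member probe sets. The procedure was tested on simulated data. There 193 genes were called for IR against NIR, 15 of them falsely, and 183 for IR against PA, 6 of them falsely. True log2 changes of 0.5 were recovered for 45 and 44 of 67 genes in these comparisons, and changes of 1 for all 67. Named genes were the 8 members, up to 4 called genes with the largest change per pathway list and comparison, and the 3 genes most correlated with each called member. The marker genes and list examples beyond that were named after their values were seen. Members and lists were chosen with earlier results of these data known. Promoter motifs were chosen after the sequences were seen. Alternatives covered signal filter, probe set choice, normalization, spread, weights, samples, pairing and single arrays. Figures used matplotlib 3.10.9.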

Additional observations from a re-analysis of the deposited data

How the results depend on the processing

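The called members were 2 in IR against NIR (Fos and Fosl1), 2 in IR against PA (Fos and Atf3) and 1 in NIR against PA (Fosl1). In IR against NIR the count was 1 with genes at or above the median signal, which leaves Fos out of the genes tested, and 1 with every probe set, with median centring, with the compared groups alone and with the replicate block. In IR against PA it was 1 with the signal filter, 1 with the compared groups alone and 0 with the replicate block. In NIR against PA it was 0 with the compared groups alone and 0 with the replicate block. Without single arrays the counts ran from 1 to 2, from 0 to 2 and from 0 to 1. Same-numbered arrays were not paired by the labels, none of their 9 correlations of deviations exceeded 0.1, and 1 of 9 arrays correlated best with its own number. The replicate block changed the counts of all called genes from 300 to 230, from 192 to 164 and from 236 to 203. The counts of all called genes were 11 with the compared groups alone in IR against NIR, and 467 and 382 with array weights in the comparisons of IR and of NIR with PA. Without single arrays they ran from 77 to 271, from 99 to 214 and from 121 to 370. Signs turned only for differences that passed nowhere. With the mean of probe sets Fosl1 in IR against PA was -0.0062, Fosl2 in NIR against PA 0.11, and Jund -0.024 in IR against NIR and 0.024 in NIR against PA. With array weights Fosl1 and Jund in IR against PA were -0.0085 and -0.0077. The other probe set gave -0.035 for Fosl1 and 0.11 for Fosl2 in IR against PA and 0.28 for Fosl2 in NIR against PA. For Jund it gave -0.16, -0.016 and 0.14 in the 3 comparisons. Without single arrays Fosl1 in IR against PA ranged from -0.019 to 0.066, Jun from -0.029 to 0.056 and Jund from -0.017 to 0.041, and in NIR against PA Fosl2 ranged from -0.18 to 0.0093 and Jund from -0.17 to 0.0046. Dim signal limits Fos and Fosb, for which a filter on signal leaves no value. The cause of these changes was not tested.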
